A study of Mus musculus with 16 samples.

Results

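The comparison set RNA from cultured mouse aortic smooth muscle cells taken 180 and 240 min after PDGF-BB against RNA taken at 120 min, to sort transcripts into those that went on rising, those that fell back and those that first rose in the later hours. It was made on 6 of the 16 arrays of the series: the wild-type and the Hey2 knockout array at 120 min, and the 4 arrays of both genotypes at 180 and 240 min. Platelet-derived growth factor BB (PDGF-BB) binds the receptors Pdgfra and Pdgfrb and drives smooth muscle cells to migrate and divide. Hey2 is a transcriptional repressor downstream of Notch, and the knockout cells are labelled as deleted for it.

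All arrays share a mixed C57BL/6 and 129SvJ background, and the cells were used between passages 10 and 20. Cells came from aortas whose adventitia had been removed. Antibody stains of the smooth muscle proteins alpha actin and calponin served to judge purity. Nearly confluent cultures were kept for 48 h in medium with 0.4% FCS and then received human PDGF-BB at 5 ng/ml. Each genotype and time has 1 array, and no untreated culture of a later time was analysed here, so hours in culture and PDGF-BB cannot be told apart. The labels do not say how many isolates or animals stand behind a genotype, and p-values measure only the spread between these arrays, which may be technical.

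A growth factor acts on transcription in waves. Immediate-early genes are transcribed from factors already present in the cell, and most of their transcripts are short-lived. Many of them encode transcription factors, and the genes those proteins act on follow as delayed-early and secondary genes. Growth also needs amino acids, charged tRNAs and new ribosomes, and genes for these supplies are known targets of ATF4 and Myc in many cell types.

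The arrays were quantile normalized, and signals below are normalized MAS5 signals in arbitrary units, which rank arrays for a gene but do not compare genes. Differences are on the log2(signal + 4.6) scale, which understates the change of dim genes, and the limma fit kept genotype as a block. Before normalization the 2% trimmed mean of the 6 arrays ran from 163.5 (wild type, 240 min) to 342.5 (knockout, 240 min). The ratio of 3′ to 5′ signal for Actb, a sign of RNA quality, was 1.53, 1.84 and 1.78 in wild type and 1.85, 2.44 and 1.54 in the knockout at 120, 180 and 240 min. For Gapdh it was highest in the knockout at 180 min (4.64) and lowest in the knockout at 240 min (2.44). The part of brightness and RNA quality in the results was not tested. To compare arrays, the mean of each gene over the 8 arrays of its genotype was subtracted, and the remainders were correlated across genes. By this measure each of the 6 arrays was closest to the array of the same time in the other genotype (r = 0.40, 0.46 and 0.52 at 120, 180 and 240 min). The libraries labelled wild type 60 min and wild type 480 min went against their labels: the first correlated best with the knockout at 480 min (r = 0.59) and the second with the knockout at 60 min (r = 0.48). They enter the comparison only through the normalization, and with the 6 arrays normalized alone 771 genes passed in place of 769.

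Markers of the labelled cell type differed between the genotypes. Acta2, smooth muscle alpha actin, had signals of 9490, 9256 and 9638 in wild type and 6054, 6257 and 6205 in the knockout at 120, 180 and 240 min. Cnn1, calponin, had 270.6, 256.2 and 229 in wild type but 46.3, 43.5 and 34 in the knockout, and Myl9, a myosin light chain, had 1561, 1585 and 1572 against 199.5, 214.3 and 210.6. Myh11, the smooth muscle myosin heavy chain, was between 24.8 and 39 in wild type and below the filter signal of 15.5 in the knockout. The summed signal of the 8 smooth muscle markers was 7977 to 16170 at 120 min and 8264 to 16470 later. In limma 0 passed (1 at an unadjusted p below 0.05, against 22.1% of all tested genes).

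Mesothelial markers were far higher in the knockout at each time. Upk1b had 111, 123 and 113 in wild type and 3849, 4047 and 3707 in the knockout, and Msln, mesothelin, had 360, 422 and 455 against 3041, 3233 and 3248. Upk3b, Lrrn4, Wt1 and Muc16 were also higher in the knockout on each of its 3 arrays than on any wild-type array. The epithelial keratin Krt18 went the other way, with 205, 351 and 318 in wild type and 31.3, 52.6 and 44.3 in the knockout. Krt8 and Epcam overlapped between the genotypes. Over 12 mesothelial and epithelial markers the summed signal was 2140 in wild type and 15220 in the knockout at 120 min, and 2623 to 17300 over the later arrays. The comparison was made within each genotype, and the part of such cells in it was not tested.

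Of 10 endothelial markers Pecam1, Cdh5, Tie1 and Vwf were below the filter signal on all 6 arrays, as were Itgam and Cd3e of 10 leukocyte markers and Adipoq, Retn and Cidec of 6 adipocyte markers. Others of these lists were above it: the leukocyte marker Cd14 had 431 to 562, and the adipocyte markers Lpl and Pparg had 944 to 5819 and 127 to 237. The summed signal of 9 adventitial fibroblast markers was 4043 to 4559 at 120 min and 3430 to 3788 later, and 0 of its 7 tested members passed in limma (2 at an unadjusted p below 0.05). In a bulk sample, fewer cells of a type and less RNA per cell cannot be told apart.

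From 120 min to the later hours, 550 of 13801 tested genes rose (3.99%) and 219 fell (1.59%) at a limma adjusted p below 0.05, together 5.57%. At an unadjusted limma p below 0.05 there were 3056 (22.1%). The counts at that level given for gene lists stand against this share. Of the called genes 71.5% rose, and 180 changed at least 2-fold, of which 139 rose and 41 fell. The median difference over all tested genes was 0.01. The count rests on single arrays: 0 genes passed in limma without the wild-type 120 min array (1237 at an unadjusted p below 0.05), 152 without the knockout 120 min array and 199 without the knockout 240 min array. On the deposited scaling, which lowered the median over all tested genes to -0.12, 16 genes passed, of which 56.2% rose.

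Fosb, a partner of Jun in the transcription factor AP-1, gave the most negative difference among the tested genes. Its wild-type signal was 3.63 at 0 min, 637 at 30 min and 1889 at 120 min, then 369 at 180 min and 148 at 240 min. In the knockout it was 11.9, 1022 and 979 at 0, 30 and 120 min, then 399 and 149. The later arrays of both genotypes lay below both 120 min arrays, and the difference was -2.48 (SE 0.42, limma adjusted p = 0.0127). Homer1, a scaffold protein with a short inducible form, had 1200 at 120 min in wild type and 294 and 167 later, and 725, 313 and 148 in the knockout. Its groups did not overlap either, with a difference of -2.07 (SE 0.30, limma adjusted p = 0.00778). Unlike Fosb, Homer1 was still near its starting signal at 30 min, with 23 in wild type and 41.6 in the knockout.

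**Figure D1:**
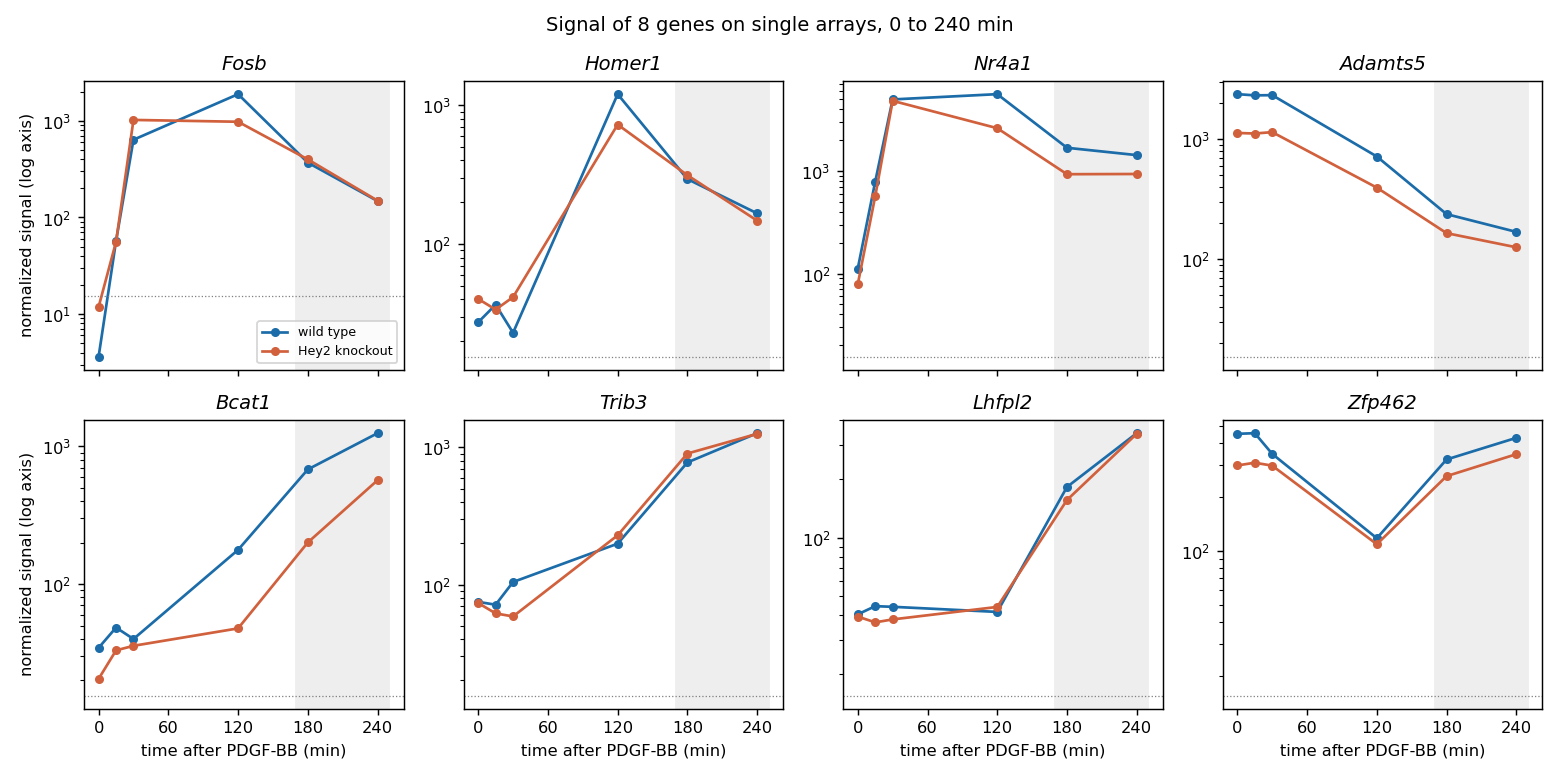
Normalized signal (log axis) of 8 genes against time after PDGF-BB in minutes, 1 array per point, wild type in blue and Hey2 knockout in orange, with the later hours shaded and the filter signal of 15.5 dotted. Fosb, Homer1 and Nr4a1 are lower on all 4 later arrays than at 120 min, Adamts5 goes on falling, Bcat1, Trib3 and Lhfpl2 are higher, and Zfp462 is low at 120 min and higher after.

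The called genes were sorted by what they had done by 120 min. A gene counted as raised or lowered when its 120 min signal differed from 0 min by more than 1 log2 in both genotypes, and as near its start when it lay within 0.5 in both. The 120 min arrays enter both differences, so a high value there moves a gene toward falling back by construction. Among 385 tested genes raised at 120 min, 43 fell back and 41 kept rising. Among 251 lowered genes, 38 recovered and 10 fell further. Among 6696 genes near their start, 210 rose and 60 fell late, and the remaining 367 called genes lay between these classes. Of the 550 genes that rose, 38.2% appeared late and 7.45% kept rising. Of the 219 that fell, 19.6% fell back. Over all 13801 tested genes 3.99% rose and 1.59% fell. The size of a class thus also follows how many genes it was drawn from, 6696 for those near their start and 385 for those raised.

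**Figure D2:**
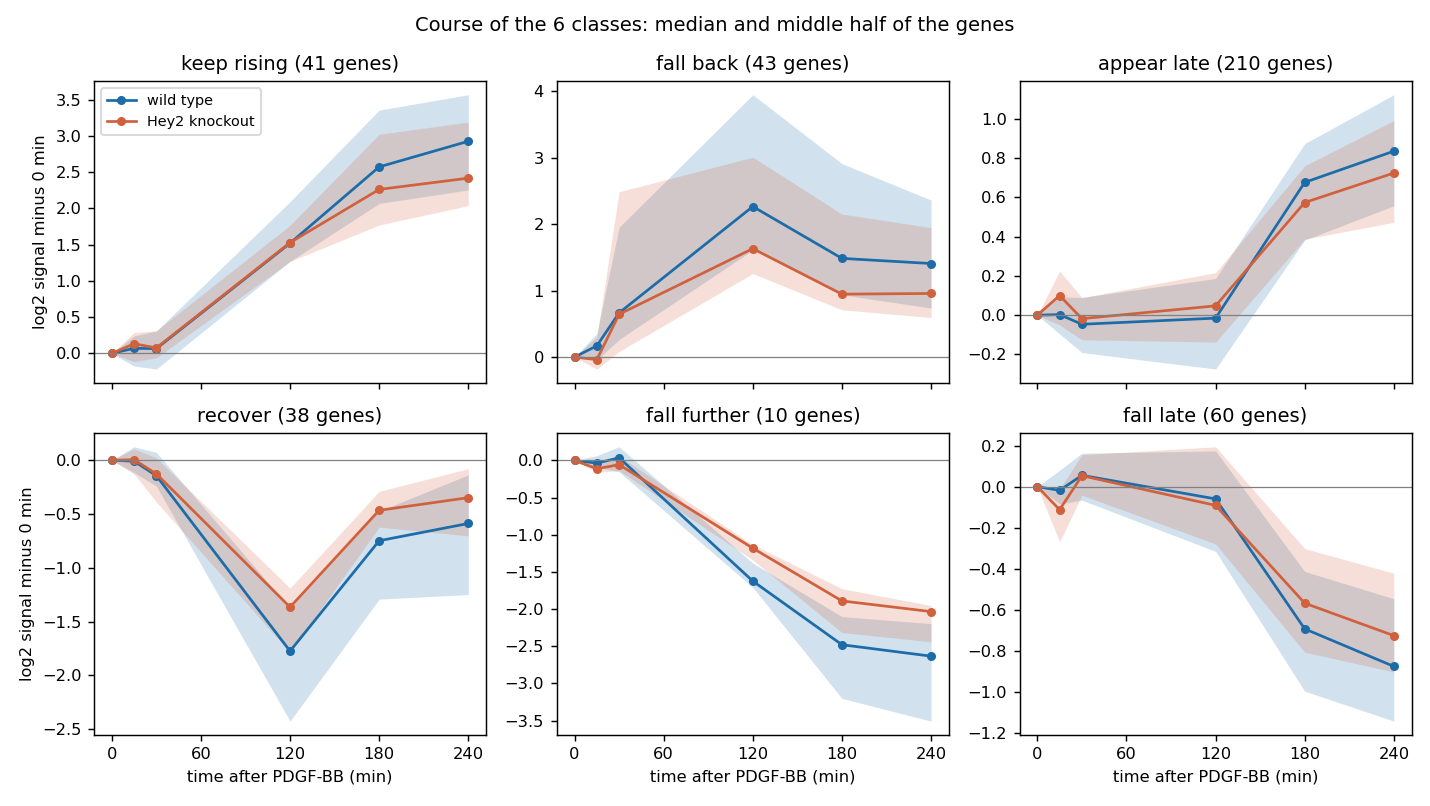
Log2 signal minus the 0 min array of the genotype against time in minutes for the 6 classes; lines are medians over genes and bands run from the lower to the upper quartile, wild type in blue and Hey2 knockout in orange. Medians of the genes that fall back drop from 2.27 at 120 min to 1.41 at 240 min in wild type and from 1.63 to 0.96 in the knockout, and those of the genes that appear late go from -0.02 to 0.84 and from 0.05 to 0.72.

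The 43 genes that fell back had a median rise of 1.94 over 0 min at 120 min and lost a median 38.3% of it on the log2 scale. They did not return to their start: the median of their later signal was 1.17 above 0 min, and 25 of the 43 were still more than 1 above it. In the knockout array at 480 min the median was 0.64 above 0 min. Many members of the immediate-early list, most of them transcription factors, were in this class.

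Of 33 tested immediate-early regulators, 15 fell (45.5%, against 1.59% of all tested genes) and 0 rose. The list median was -0.46 against 0.01 for all tested genes. The median was between -0.45 and -0.60 under all 5 scalings, with 3 members passing on the deposited one. Both 120 min arrays lay above all 4 later ones in 11 of the 33, which held for 7.39% of tested genes. All 15 were lower on all 4 later arrays than at 120 min in their genotype, which the test that called them favours. Of the 15, 14 belonged to the class that falls back, and 12 were still more than 1 above 0 min. Nr4a1, an orphan nuclear receptor, had the smallest adjusted p of the whole comparison. Its signals were 5615, 1685 and 1429 in wild type and 2615, 931 and 935 in the knockout at 120, 180 and 240 min. Every later value was under both 120 min values (difference -1.67, SE 0.11, limma adjusted p = 4.03e-04), and nearly all of the fall had taken place by 180 min. Its relatives Nr4a2 and Nr4a3 fell by 1.15 and 1.29 on the log2 scale.

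Atf3, a stress-induced repressor of the ATF family, had 5307, 1418 and 727 in wild type and 2753, 1103 and 1246 in the knockout (difference -1.80, SE 0.27, limma adjusted p = 0.00845). Its 4 later values did not reach either 120 min value. Arc, best known from neurons as an activity-regulated cytoskeletal protein, differed more between genotypes at 120 min, with 1578 in wild type and 367 in the knockout. It then had 562 and 445 in wild type and 214 and 159 in the knockout (difference -1.31, SE 0.19, limma adjusted p = 0.00759). The wild-type later values were above the knockout 120 min value, so the groups overlapped and the fall showed within each genotype. Csrnp1, a nuclear protein induced by many stimuli, fell by 1.31.

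The zinc finger factors of the EGR family did not move as 1 group. Egr3 had 4012, 1590 and 2186 in wild type and 2091, 830 and 913 in the knockout at 120, 180 and 240 min (difference -1.18, SE 0.13, limma adjusted p = 0.00335). Egr4 fell by 1.64 and Egr2 by 0.76 on the log2 scale. Egr1 had 7315, 7964 and 8459 in wild type and 4713, 5033 and 7087 in the knockout, and its difference of 0.25 did not pass (SE 0.11, limma adjusted p = 0.225). Nab2, a corepressor that binds EGR proteins, fell with Egr2, Egr3 and Egr4, with signals of 3352, 1463 and 1772 in wild type and 1730, 921 and 992 in the knockout (difference -0.95, SE 0.11, limma adjusted p = 0.00353). Its 30 min signal was still low, with 793 against 890 at 0 min in wild type and 482 against 506 in the knockout.

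Within AP-1, Fosb, Fosl2 (-0.46) and Jun (-0.72) fell, while Fos and Fosl1 did not pass. Fos had 8583 at 30 min and 1301 at 120 min in wild type, and 8204 and 1586 in the knockout. It then had 1179 and 808 in wild type and 2403 and 2453 in the knockout, so the later values lay below the 120 min value in wild type and above it in the knockout (difference 0.10, SE 0.21, limma adjusted p = 0.825). Fosl1, which is induced later than Fos, had 3569, 3036 and 2825 in wild type and 2333, 2037 and 2311 in the knockout, with a difference of -0.19 (SE 0.09, limma adjusted p = 0.228). Myc had 2634, 3307 and 3445 in wild type and 1321, 1428 and 1893 in the knockout (difference 0.34, SE 0.11, limma adjusted p = 0.106). Ier3 differed by -0.18 (limma adjusted p = 0.304).

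Srf, the serum response factor, was called lower (difference -0.72, SE 0.13, limma adjusted p = 0.0143). Its signals were 2408, 1659 and 1441 in wild type and 1597, 1054 and 798 in the knockout. The CArG box bound by this factor, a run of A and T between paired C and G, was searched on both strands of the 250 bases before and 50 bases after the annotated start. It was found in 2 of 36 promoters of the genes that fell back, those of Srf and Dusp5 (5.56%), and in 1.34% of the 11053 promoters of tested genes. In the immediate-early list 1 of 25 promoters held it (4%). Other motifs were searched too. That of AP-1 was in 3 of the 36 (8.33%, against 3.87% of tested genes) and in 0 of the 25. That of NF-kappaB was in 4 of the 36 (11.1%, against 10% of tested genes) and in 7 of the 25 (28%). The cAMP response element was in 1 of the 36 (2.78%, against 3% of tested genes) and 1 of the 25 (4%). It was in 4 of 28 promoters of the genes that recovered (14.3%). No share was tested. Srf is shown because its promoter holds 2 such boxes side by side, in capitals (RefSeq, GRCm38.p6, chr17:46556185-46556274, minus strand).

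Srf: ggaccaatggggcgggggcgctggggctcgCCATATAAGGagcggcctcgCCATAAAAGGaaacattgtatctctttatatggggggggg

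The list of actin cytoskeleton targets of Srf and its coactivators also holds Srf and the coactivator Mrtfa. Of its 25 tested genes 5 fell (20%, against 1.59% of all tested genes), Srf among them. In the same list 1 rose, which was Mrtfa (0.49), and the median was -0.04. The others that fell were Filip1l (-0.67), Lima1 (-0.61), the LIM protein Fhl2 (-0.44) and Zyx, zyxin (-0.34). Of 20 feedback inhibitors of MAP kinase signalling, 2 fell (10%, against the same 1.59%) and 0 rose, with a median of -0.17. Dusp5, a nuclear phosphatase of ERK, had 3030, 1500 and 1377 in wild type and 1500, 879 and 969 in the knockout (difference -0.89, SE 0.11, limma adjusted p = 0.00535). Dusp16, which acts on JNK and p38, fell by 0.60. Dusp6, a cytoplasmic phosphatase of ERK, had 1420, 1629 and 2050 in wild type and 922, 1340 and 2087 in the knockout, with a difference of 0.61 that did not pass (SE 0.18, limma adjusted p = 0.0781).

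Ptger4, a prostaglandin E2 receptor, had 558, 320 and 298 in wild type and 254, 109 and 145 in the knockout (difference -0.92, SE 0.16, limma adjusted p = 0.013). Tnfaip6, a hyaluronan-binding protein, fell by 0.94, and F3, the tissue factor that starts coagulation, by 0.65. Nfil3, a bZIP repressor, fell by 0.83 and Cdkn1a, the cell cycle inhibitor p21, by 0.34. Ptgs2, the inducible prostaglandin synthase, had 5052, 4280 and 4677 in wild type and 5423, 4836 and 4650 in the knockout, a difference of -0.18 that did not pass (limma adjusted p = 0.132). The growth factor Hbegf (-0.21, limma adjusted p = 0.18) and the cytokines Il6 (-0.49, limma adjusted p = 0.0822) and Lif (0.30, limma adjusted p = 0.147) did not pass either.

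The 41 genes that kept rising had a median rise of 1.57 at 120 min and 2.51 in the later hours over 0 min. At 30 min their median was 0.05 above 0 min. In the knockout array at 480 min it was 2.22 above. Bcat1, the cytosolic branched-chain amino acid transaminase, had 177, 680 and 1247 in wild type and 47.7, 201 and 568 in the knockout at 120, 180 and 240 min, and 1206 in the knockout at 480 min. All 4 later values exceeded both 120 min values (difference 2.53, SE 0.36, limma adjusted p = 0.00758). Trib3, a pseudokinase induced when amino acids run short, had 199, 777 and 1269 in wild type and 229, 902 and 1255 in the knockout. The genotypes followed nearly the same course (difference 2.25, SE 0.20, limma adjusted p = 0.0012).

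Both genes belong to amino acid metabolism and its control. Of 39 tested genes for tRNA charging and amino acid supply, most of them described as targets of the transcription factor ATF4, 23 rose and 0 fell (59%, against 3.99% of all tested genes). The list median was 0.58, and between 0.44 and 0.58 under the 5 scalings, with 1 member passing on the deposited one. In 28 of the 39, both 120 min arrays lay below all 4 later ones, which held for 11.4% of tested genes. All 23 were higher in the mean at 240 than at 180 min. Other risers moved this way too: the median change from 120 min was 0.57 at 180 and 0.75 at 240 min over all genes that appeared late. Of the 23, 7 had been raised by 120 min and kept rising, 8 appeared late and the others lay between.

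**Figure D3:**
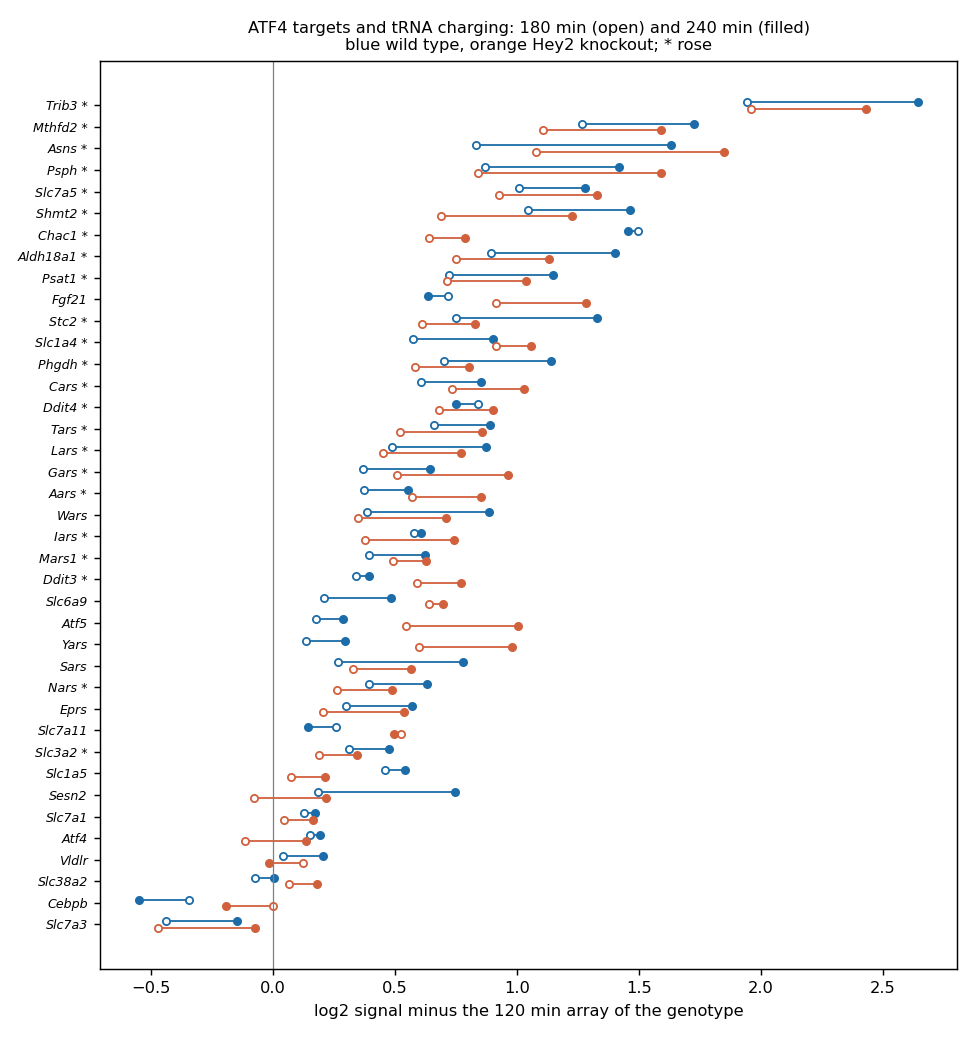
Log2 signal at 180 min (open circles) and 240 min (filled circles) minus the 120 min array of the same genotype, for the 39 tested genes of tRNA charging and amino acid supply, wild type in blue and Hey2 knockout in orange; an asterisk marks the 23 genes that rose. Trib3, Mthfd2, Asns and Psph lie farthest to the right in the mean, and Slc7a3 and Cebpb lie left of 0.

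Supply of serine and of folate-bound carbon units was among the roles covered. Mthfd2, a mitochondrial enzyme of folate metabolism, had 984, 2375 and 3270 in wild type and 784, 1696 and 2374 in the knockout (difference 1.42, SE 0.16, limma adjusted p = 0.00335). Its groups did not overlap. Psph, Phgdh and Psat1, the 3 enzymes of serine synthesis, rose by 1.18, 0.81 and 0.90, and Shmt2, which passes a carbon unit from serine to folate, by 1.11. Asns, asparagine synthetase, had 1199, 2138 and 3724 in wild type and 541, 1147 and 1957 in the knockout (difference 1.35, SE 0.23, limma adjusted p = 0.0137). The knockout 180 min value of Asns was below the wild-type 120 min value, so its rise showed within each genotype while the groups overlapped. Aldh1l2, a mitochondrial folate enzyme outside the list, had 79.9, 187 and 428 in wild type and 65.7, 151 and 346 in the knockout, and 957 in the knockout at 480 min (difference 1.75, SE 0.35, limma adjusted p = 0.0231).

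Transport and tRNA charging rose in part. Slc7a5, the transporter of leucine and other large amino acids, had 834, 1682 and 2030 in wild type and 581, 1110 and 1468 in the knockout (difference 1.14, SE 0.13, limma adjusted p = 0.00362). Its partner chain Slc3a2 rose by 0.33, and Slc1a4, a transporter of alanine and serine, by 0.86. The other 6 of the 9 tested transporters, Slc1a5, Slc38a2, Slc6a9, Slc7a1, Slc7a3 and Slc7a11, did not pass, with differences of -0.28 to 0.51. Of 12 tRNA synthetases 8 rose, among them Cars (0.81), Tars (0.73), Lars (0.65), Gars (0.62) and Aars (0.59). Eprs, Sars, Wars and Yars did not pass (0.40 to 0.58). Chac1, which breaks down glutathione, had 843, 2385 and 2321 in wild type and 1658, 2585 and 2865 in the knockout (difference 1.09, SE 0.15, limma adjusted p = 0.00715). Atf4 itself had 5566, 6174 and 6355 in wild type and 4777, 4402 and 5236 in the knockout, with a difference of 0.09 that did not pass (SE 0.08, limma adjusted p = 0.558). These are RNA values, and ATF4 is known to be controlled in good part at translation.

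ATF4 binds with C/EBP proteins at a composite element, written here as TGATGNAA. It was searched on both strands of the promoters after the values had been seen. It was present in 11 of the 32 promoters available for the list (34.4%) and in 2.34% of the 11053 promoters of tested genes. Of those 11 genes, 8 rose, and Fgf21, Slc7a11 and Yars did not pass. Because the list was drawn largely from described ATF4 targets, a high share could be foreseen and is no result of these hours. By class, the element was in 3 of 34 promoters of genes that kept rising (8.82%) and 2 of 36 that fell back (5.56%). It was in 3 of 168 that appeared late (1.79%) and 1 of 48 that fell late (2.08%). A match describes the letters in the window and is not a measured binding site. The stretches of Asns (chr6:7693210-7693262, minus strand), Gars (chr6:55037941-55038000, plus strand), Tars (chr15:11399659-11399703, minus strand) and Chac1 (chr2:119351019-119351086, plus strand) are shown to set the element, in capitals, beside genes that rose, all from RefSeq on GRCm38.p6. In Asns it reads on the gene strand, 16 to 23 bases before the annotated start; in Gars, Tars and Chac1 it reads on the opposite strand, 23 to 30, 8 to 15 and 186 to 193 bases before it.

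Asns: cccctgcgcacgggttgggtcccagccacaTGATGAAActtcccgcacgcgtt

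Gars: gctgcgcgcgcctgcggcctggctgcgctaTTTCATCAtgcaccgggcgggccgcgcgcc

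Tars: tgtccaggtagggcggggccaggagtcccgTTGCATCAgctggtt

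Chac1: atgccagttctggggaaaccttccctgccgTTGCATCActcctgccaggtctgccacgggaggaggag

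Ribosome biogenesis was the other supply list with many called members. Of 47 tested genes for making ribosomes in the nucleolus, 23 rose and 0 fell (48.9%), with a median of 0.43, and between 0.28 and 0.44 under the 5 scalings, with 0 members passing on the deposited one. Of the 47, 46 had a difference above 0, against 50.6% of all tested genes. Both 120 min arrays lay below all 4 later ones for 21 of them, against 11.4% of all tested genes. Polr1e, a subunit of RNA polymerase I, had 148, 262 and 356 in wild type and 108, 210 and 261 in the knockout (difference 1.05, SE 0.17, limma adjusted p = 0.0111). Nop56, a core protein of snoRNA particles, had 1642, 3007 and 3272 in wild type and 1826, 2482 and 2783 in the knockout (difference 0.73, SE 0.11, limma adjusted p = 0.00759). Every later value of Nop56 was above both 120 min values. Heatr1 (0.62), Grwd1 (0.63), Polr1b (0.78), Rrp12 (0.84) and Dkc1 (0.85) also rose. Of the 23, 6 kept rising and 4 appeared late.

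The E-box CACGTG, bound by Myc and its partners, was present in 10 of 42 promoters of the ribosome biogenesis list (23.8%) and in 9.83% of promoters of tested genes. Of the 10, Grwd1, Mybbp1a, Nle1 and Nop2 rose, and 6 did not pass. The stretch of Nop2, an rRNA methyltransferase that rose by 0.71 on the log2 scale, is printed as an example with the box in capitals (RefSeq, GRCm38.p6, chr6:125131793-125131858, plus strand). The box ends 55 bases before the annotated start.

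Nop2: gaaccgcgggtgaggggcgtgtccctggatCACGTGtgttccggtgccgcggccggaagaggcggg

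The protein parts of the ribosome gave no such count. Of 23 tested cytosolic ribosomal proteins, 0 rose and 0 fell by limma (0 at an unadjusted p below 0.05), with a median of -0.01. For the respiratory chain 0 of 31 passed (1 at an unadjusted p below 0.05), with a median of -0.02. Of 30 genes of nuclear export, translation initiation and mRNA processing 3 rose (10%, against 3.99% of all tested genes). Among them were Eif4ebp1, the inhibitor of cap-dependent translation (0.99), and Srm, spermidine synthase (0.62). Of 20 genes of endoplasmic reticulum stress and folding 1 rose, the oxidase Ero1a (0.74), with a list median of -0.11.

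**Figure D4:**
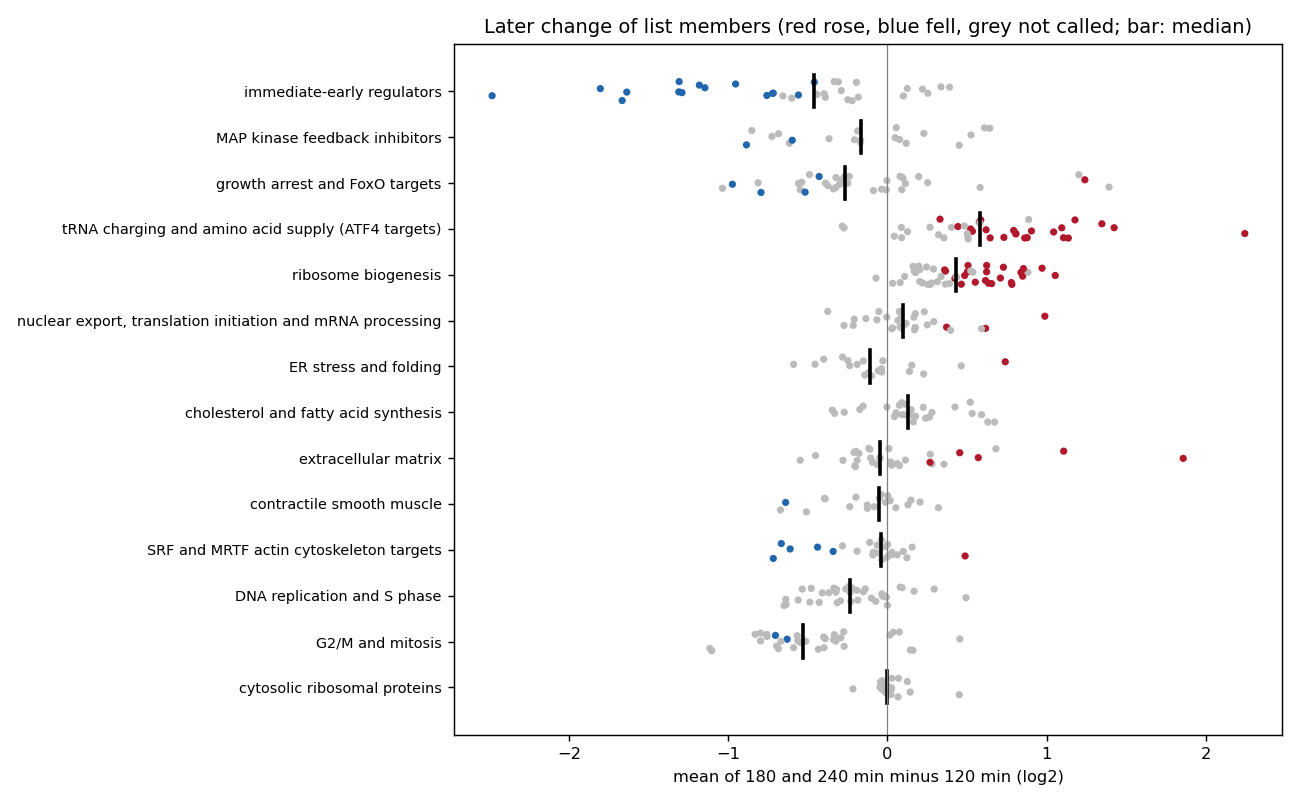
Log2 difference of the mean of 180 and 240 min from 120 min for tested members of 14 gene lists, 1 point per gene; red rose, blue fell, grey did not pass, and the black bar is the list median. The immediate-early list has its median at -0.46 with 15 blue points, and the lists of amino acid supply and ribosome biogenesis have theirs at 0.58 and 0.43 with 23 red points each.

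Sema4f, Csf1r, Runx1 and Cd44 also kept rising. Sema4f, a membrane semaphorin, had 176, 483 and 471 in wild type and 206, 587 and 565 in the knockout (difference 1.44, SE 0.12, limma adjusted p = 0.0011). Csf1r, the receptor of macrophage colony-stimulating factor, had 125, 319 and 333 in wild type and 286, 655 and 747 in the knockout (difference 1.32, SE 0.13, limma adjusted p = 0.002). It was the 1 member that rose among 8 tested leukocyte markers, while Itgam and Cd3e were below the filter signal throughout. The summed signal of the list was 735 to 968 at 120 min and 933 to 1412 later, Csf1r included. Runx1, a transcription factor known from blood formation, had 374, 807 and 949 in wild type and 413, 618 and 621 in the knockout (difference 0.90, SE 0.15, limma adjusted p = 0.0136). Cd44, the hyaluronan receptor, rose by 0.51.

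Among keratins, Krt8 and Krt19 rose from intermediate courses, Krt13 kept rising (0.95), and Krt14 (0.33) and Krt18 (0.62) did not pass. Krt8 rose by 0.75 and Krt19 by 0.58, the 2 that passed among 12 tested mesothelial and epithelial markers. Krt8 had 54, 88.1 and 98.7 in wild type and 70.8, 123 and 123 in the knockout. Krt19 was higher in the knockout at each time, with 1967, 2786 and 3275 against 526, 652 and 916 in wild type.

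The largest class, drawn from the 6696 genes near their start at 120 min, held the 210 genes that appeared late. The name stands for a rise from near the 0 min level, whether or not the gene had signal before. Its median was -0.01 over 0 min at 120 min and 0.69 later, and 39 of the 210 were then more than 1 above 0 min. In the knockout array at 480 min the median was 0.68. Of all tested genes, 4 were under the filter signal at 0 to 120 min and above it on all 4 later arrays, and 1 of these was called. Fat2, a giant protocadherin, was below the filter signal until 120 min. Its signal was 2.6, 6.66 and 3.01 in wild type and 2.76, 4.18 and 2.59 in the knockout at 0, 30 and 120 min. It was then 41.5 and 104 in wild type and 33.8 and 53.8 in the knockout. It entered the test through its later signals alone, and since its 120 min signal has only an upper bound, at the filter signal it was at least 2.88-fold higher later on the offset scale (limma adjusted p = 0.0074).

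Lhfpl2, a membrane protein with 4 spans, had 41.7 and 44.2 at 120 min, 182 and 156 at 180 min and 344 and 341 at 240 min in wild type and knockout (difference 2.37, SE 0.31, limma adjusted p = 0.00659). In the knockout at 480 min it was 340. Shroom4, a regulator of cell shape that binds actin, had 192, 587 and 660 in wild type and 269, 872 and 705 in the knockout (difference 1.60, SE 0.14, limma adjusted p = 0.0011). It reached its later signal by 180 min, while Lhfpl2 was higher again at 240 min. Dus4l, a tRNA dihydrouridine synthase, rose by 1.54.

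Matrix and adhesion genes held several of the late risers. Of 31 tested matrix genes 5 rose (16.1%, against 3.99% of all tested genes) and 0 fell, with a median of -0.05. Col15a1, a basement membrane collagen, had 22.8, 133 and 170 in wild type and 31.7, 82.3 and 77.3 in the knockout (difference 1.86, SE 0.28, limma adjusted p = 0.00826). Col6a3 had 725, 1465 and 1787 in wild type and 373, 653 and 938 in the knockout (difference 1.11, SE 0.15, limma adjusted p = 0.0074). The knockout 180 min value of Col6a3 lay below the wild-type 120 min value, while within each genotype both later values were higher. Col5a1 (0.57), Col4a2 (0.45) and Col4a1 (0.27) were the others that rose, but Col4a2 and Col4a1 were not in the class that appeared late. Itgb3, the beta chain of the vitronectin receptor, had 164, 299 and 278 in wild type and 78.8, 192 and 199 in the knockout (difference 1.03, SE 0.16, limma adjusted p = 0.0091), and Itga3 rose by 0.45.

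Cell cycle genes moved in part. Ccnd1, cyclin D1, which carries growth factor signals into the cell cycle, had 3654, 4814 and 5630 in wild type and 4361, 5307 and 5889 in the knockout (difference 0.43, SE 0.08, limma adjusted p = 0.0198). Its kinase partner Cdk6 had 998, 1308 and 1875 in wild type and 973, 1493 and 1655 in the knockout (difference 0.67, SE 0.14, limma adjusted p = 0.0249). Both had groups that did not overlap. The pocket protein Rbl2 fell by 0.79, and Cdkn1b, the inhibitor p27, did not pass (0.08, limma adjusted p = 0.802). Of 36 tested genes of DNA replication 0 passed in limma, with a median of -0.23. At an unadjusted p below 0.05 there were 5, against 22.1% of all tested genes. Of 34 mitotic genes 2 fell (5.88%, against 1.59% of all tested genes) and 0 rose, with a median of -0.53. Top2a, the topoisomerase of dividing cells, fell by 0.70 and Cdk1, the mitotic kinase, by 0.63. Hmmr, a hyaluronan receptor that also binds the spindle, fell by 1.33.

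Several signalling genes rose from intermediate courses. Kcnn4, a calcium-activated potassium channel known from proliferating smooth muscle, had 13.6, 87.7 and 105 in wild type and 150, 525 and 623 in the knockout (difference 2.18, SE 0.19, limma adjusted p = 0.0011). The knockout was higher at each time, and both genotypes rose. Adcyap1r1, the receptor of the peptide PACAP, had 74.9, 221 and 374 in wild type and 18.4, 69.6 and 144 in the knockout (difference 2.04, SE 0.29, limma adjusted p = 0.00759). Vegfc, a growth factor for lymphatic vessels, rose by 1.46, Igf1 by 0.90 and the EGF receptor Egfr by 0.81. Of the PDGF receptors, Pdgfrb had 2897, 3087 and 3110 in wild type and 2992, 3698 and 3283 in the knockout and did not pass (0.16, limma adjusted p = 0.271), nor did Pdgfra (0.28, limma adjusted p = 0.57).

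Late transcription factors were split. Of 33 tested, 7 rose (21.2%, against 3.99% of all tested genes) and 3 fell (9.09%, against 1.59%), with a median of 0.02. Nfatc1, a calcium-dependent factor, had 754, 1202 and 1428 in wild type and 266, 571 and 624 in the knockout (difference 0.97, SE 0.13, limma adjusted p = 0.00722). Snai2 (0.86), Twist2 (0.66) and Zeb1 (0.46), repressors known from epithelial-mesenchymal transition, rose too, while their relatives Snai1 (0.02), Twist1 (-0.33) and Zeb2 (0.24) did not pass. Snai2 had been lowered at 120 min and lay 1.34 log2 units below its 0 min signal later. Stat3, the factor downstream of gp130 cytokines, had 2794, 1837 and 1144 in wild type and 2626, 1553 and 1261 in the knockout and fell (difference -0.93, SE 0.17, limma adjusted p = 0.015).

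Of 22 tested genes of the Notch pathway and its Hey and Hes repressors, 0 passed in limma (2 at an unadjusted p below 0.05). Hey2 had 14, 19.3 and 16.6 in wild type and 23.3, 34.8 and 41 in the knockout, against 101 and 34.3 at 0 min. Its difference was 0.44 (SE 0.31, limma adjusted p = 0.449). Whether the Hey2 probe set lies in the deleted part is not stated in the labels, so these values check no label. Hey1 (-0.68, limma adjusted p = 0.317) and Hes1 (-0.57, limma adjusted p = 0.112) did not pass.

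The 38 genes that recovered had been lowered by a median 1.68 at 120 min and lay a median 0.59 below 0 min in the later hours. Zfp462, a zinc finger protein of chromatin, had 450 at 0 min, 117 at 120 min, and 323 and 427 later in wild type, with 299, 109, 261 and 346 in the knockout (difference 1.53, SE 0.17, limma adjusted p = 0.00353). It came close to its starting signal in both genotypes. Adat1, a tRNA adenosine deaminase, had 11.5, 72.7 and 82.5 in wild type and 1.17, 29.4 and 52.3 in the knockout, so both 120 min values were below the filter signal. Against that signal it was at least 2.99-fold higher later on the offset scale (limma adjusted p = 0.00498), and it too entered the test through its later signals. Txnip, which restrains glucose uptake, had 1648 at 0 min, 199 at 120 min and 477 and 670 later in wild type, with 1808, 230, 451 and 473 in the knockout (difference 1.24, SE 0.17, limma adjusted p = 0.0074). Unlike Zfp462, it stayed far below its start.

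Cxcl1, a neutrophil chemokine, had 3027 at 30 min, 870 at 120 min and 1526 and 1623 later in wild type, with 3904, 531, 1321 and 1228 in the knockout (difference 1.05, SE 0.12, limma adjusted p = 0.00338). The 30 min signal, above that of 0 min (1909 and 1654), was thus followed by a dip at 120 min and a rise after it. Smad6, an inhibitor of BMP signalling, rose by 0.95, with the later signal still below the 0 min one in both genotypes, and Card6 and Rpusd3, a mitochondrial pseudouridine synthase, rose by 1.39 and 1.45.

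The 10 genes that fell further were a median 1.37 below 0 min at 120 min and 2.25 below it later. Adamts5 and Adamts1, proteases of cartilage and vessel proteoglycans, were both among them. Adamts5 had 2366 at 0 min, 717 at 120 min and 238 and 169 later in wild type, with 1125, 395, 165 and 126 in the knockout (difference -1.62, SE 0.19, limma adjusted p = 0.00362). Adamts1 had 2309 at 0 min, 832 at 120 min and 350 and 292 later in wild type, with 980, 438, 183 and 174 in the knockout (difference -1.32, SE 0.14, limma adjusted p = 0.00255). Each stepped down in both genotypes without overlap between groups. Of 18 tested genes of plasminogen activation and matrix proteases, 3 fell (16.7%, against 1.59% of all tested genes) and 0 rose, with a median of -0.11.

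Klhl24, an adaptor of a ubiquitin ligase, fell by 1.39, Crebrf by 0.90 and the interferon-induced Ifit3 and Ifit2 by 0.90 and 0.71. Of 36 tested genes of growth arrest, many of them FoxO targets, 4 fell (11.1%, against 1.59% of all tested genes) and 1 rose, with a median of -0.27. Ypel3, linked to senescence, had 451, 190 and 160 in wild type and 421, 331 and 230 in the knockout (difference -0.97, SE 0.21, limma adjusted p = 0.0269). Sesn3, a stress-inducible brake on growth, fell by 0.52 and Tob1, an antiproliferative protein, by 0.43. Txnip, described above, was the member that rose.

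Among the 60 genes that fell late, Tmtc2, a transferase of the endoplasmic reticulum, had 1674, 878 and 350 in wild type and 1131, 610 and 286 in the knockout, after 2061 and 1198 at 0 min (difference -1.51, SE 0.35, limma adjusted p = 0.0355). Usp54 had 483, 215 and 234 in wild type and 746, 322 and 390 in the knockout (difference -1.08, SE 0.14, limma adjusted p = 0.00531). Elf1, an ETS transcription factor, fell by 0.98 and Ckap2, a spindle protein, by 0.94. Of 21 tested contractile genes 1 fell, the myosin light chain kinase Mylk (-0.64), with a list median of -0.05.

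Taken by hour, 291 genes were higher (2.11%) and 126 lower (0.913%) at 180 than at 120 min, and 1175 were higher (8.51%) and 877 lower (6.35%) at 240 min. Both hours share the 120 min arrays. Either way this was 3.02% at 180 min and 14.9% at 240 min. Of the genes that passed, 274 were higher and 105 lower at both hours, 901 and 772 passed at 240 min without passing at 180 min, and 17 and 21 passed at 180 min without passing at 240 min. Passing at 1 hour and not at the other does not show that the hours differ, which the direct comparison tested. Of the immediate-early list, 22 members were lower and 3 higher at 240 min. Of the amino acid list 29 were higher and 1 lower, and of the ribosome biogenesis list 32 were higher and 0 lower.

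Between 180 and 240 min 4 genes rose (0.029%) and 7 fell (0.0507%), together 0.0797%. Asns (0.78), Aldh1l2 (1.18) and Mthfd1l (0.83), a mitochondrial folate enzyme, rose, as did the metalloprotease Adam12 (1.35). Adam12 had 262, 173 and 574 in wild type and 262, 309 and 623 in the knockout, so its rise lay in the last hour. Pde5a, the phosphodiesterase of cyclic GMP, had 590, 304 and 103 in wild type and 578, 420 and 131 in the knockout, a fall of 1.58 in the last hour (limma adjusted p = 0.0115). Tmtc2 (-1.20), Malat1 (-1.38), a nuclear long noncoding RNA, Rasl11b (-1.02), Socs3 (-0.70), an inhibitor of cytokine signalling, Wdr6 (-0.65) and Gadd45g (-0.60) fell too.

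The genotypes were also set side by side, each against its own 120 min array. Of 598 genes more than 1 log2 higher in wild type (4.33%), 97 were also more than 1 higher in the knockout (16.2%, against 2.83% of all tested genes), and 73.2% were above 0 there. Of 499 genes more than 1 lower in wild type (3.62%), 45 were also more than 1 lower in the knockout (9.02%, against 1.48%), and 66.7% were below 0, against 47.9% of tested genes there and 51.3% in wild type. Across the 13801 genes, which are not independent replicates, the differences of the genotypes correlated with r = 0.34, and no array was shared between them.

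**Figure D5:**
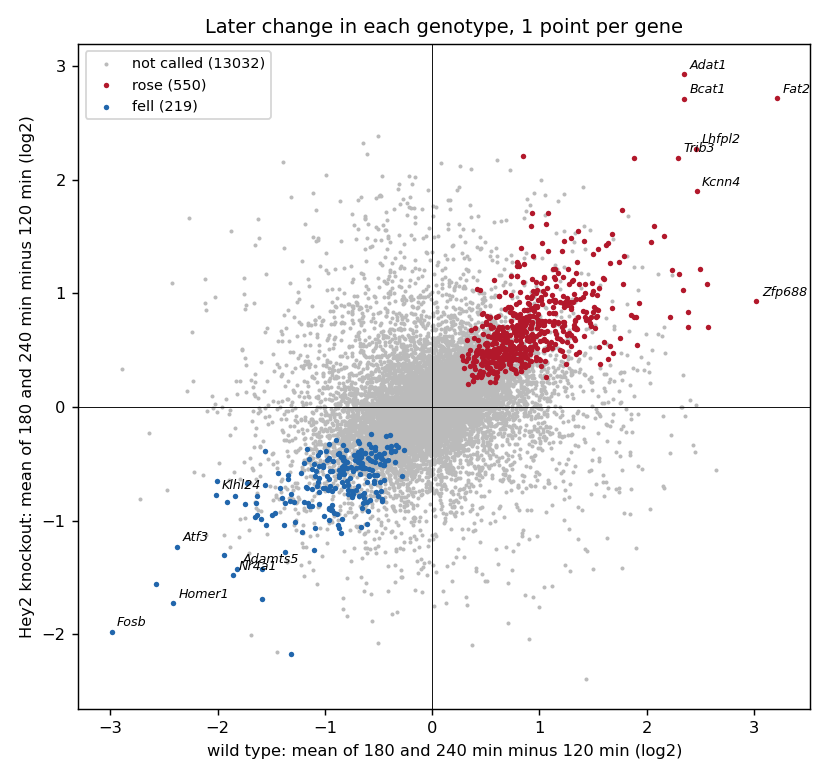
Log2 difference of the mean of 180 and 240 min from 120 min in the Hey2 knockout (vertical axis) against wild type (horizontal axis), 1 point per tested gene; red genes rose (550), blue genes fell (219) and grey genes did not pass. Called genes lie in the upper right and lower left because the test requires both genotypes to move alike, while 13032 grey genes fill the middle and the other corners.

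Whether the change differed between genotypes was tested by the limma interaction. Of 13801 genes 0 passed in either direction (0%), and 572 had an unadjusted p below 0.05 (4.14%). With 1 array per genotype and time and 2 residual degrees of freedom, a count of 0 carries little information on whether the knockout changed the later hours. On the deposited scaling 47 genes passed, all higher in the knockout, where the arrays grew brighter from 120 to 240 min (230, 250.3 and 342.5) while they dimmed in wild type (274.6, 191.3 and 163.5). The part of brightness in that count was not tested. With the arrays of 0, 15 and 30 min in the fit 2 genes passed.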

How the data were processed

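RNA was measured on Affymetrix mouse arrays. Deposited values were linear signal intensities per probe set, which the submitters' processing notes credit to MAS5; their scaling is not given. All 16 arrays were quantile normalized, and 4.6 (the 20th percentile) was added before log2. Genes were tested where a probe set with 1 symbol passed 15.5 (the 40th percentile) on 2 or more of 6 arrays, with the brightest such probe set. Of 45101 probe sets, 34945 had 1 symbol, 932 several and 9160 none; 34741 matched RefSeq (GRCm38.p6). Of 203 named genes 103 had several probe sets, and 0 had one called the opposite way.

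Models were fitted in limma 3.58.1 (R 4.3.3) with trended variance and Benjamini-Hochberg p-values called at 0.05; 3 residual degrees of freedom remained. Code was tested on simulated data. Members, lists and rules were chosen with earlier results of these data known. Named genes were the 12 largest rises and 12 largest falls with 1 sign in all 4 matched differences and mean signal above 50.1, the 6 largest per class, up to 4 per list by p, the 6 smallest interaction p-values past the threshold (none passed) and a set of chosen genes. Other list members, Csrnp1 and the genes of the last hour were named after their values were seen. Promoters (11053 genes) are RefSeq's. Alternatives changed scaling, offset, filter, probe sets, variance trend, array weights, arrays used, genotype block, time scale and class limits.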

Additional observations from a re-analysis of the deposited data

Results flagged for a closer look

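For 3 named genes, both later arrays lay above the 120 min array in 1 genotype and both lay below it in the other. They were found by direction alone, among genes above the filter signal on all 6 arrays. The knockout minus wild-type difference in the later change was 1.03 for Fos, an immediate-early subunit of AP-1 (-0.41 in wild type and 0.61 in the knockout, limma interaction adjusted p = 0.998). For Pdgfra, a receptor of PDGF-BB, it was -0.83 (0.69 and -0.14, limma interaction adjusted p = 0.998). For Sdhc, a subunit of succinate dehydrogenase, it was 0.53 (-0.44 and 0.09, limma interaction adjusted p = 0.998). None passed the interaction test after adjustment, and each rests on 1 array per genotype and time.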

How the results depend on the processing

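Against 769 genes called in the second wave, 16 passed on the deposited scaling, 339 without the filter on low signals, 0 without the intensity trend (2554 with an unadjusted p below 0.05), 1 with all 16 arrays in the fit, 0 without the genotype block (1211 unadjusted), 180 at 2-fold or more and 1674 with a slope on hours (56.5% higher). Through that block the later arrays were set against the 120 min array of their own genotype. The arrays of a time were not paired across genotypes, and no further replicate numbers exist. Leaving out 1 array gave 0 to 981 genes: 0 without wild type 120 min (1237 unadjusted), 152 without knockout 120 min, 199 without knockout 240 min, and 620 to 981 otherwise. The other scalings, offsets, filters and probe-set rules gave 705 to 856, array weights 1021 and 12 arrays 1035. The 101 called named genes kept their direction in all settings where they were tested, and the rule that chose part of them asks for 1 direction. At 180 min, 417 became 0 as deposited, 172 unfiltered, 0 without trend and 133 with 12 arrays. At 240 min, 2052 became 7, 0 without trend and 1321 with 12 arrays. Between these hours, 11 became 0 as deposited, 0 unfiltered, 0 without trend, 3 with a smaller offset and 2 with 12 arrays. The interaction gave 47 as deposited and 2 with 12 arrays. With limits of 0.5 in place of 1, 96 genes kept rising, 71 fell back, 94 recovered and 31 fell further. Split at 30 min, which shares no array with the later change, 0 kept rising, 17 fell back, 1 recovered, 0 fell further, 463 appeared late and 175 fell late. Apart from fewer arrays or genes, the cause was not tested. The array number limits all precision.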

Other observations

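Gene families grouped by symbol were looked at after the values had been seen, as a description. Zinc finger genes named Zfp made up 307 of the 13801 tested genes, or 2.22%. Of the 251 genes lowered at 120 min in both genotypes, 21 were of this family, or 6.84% of its members, against 1.82% of all tested genes. In the later hours 23 of the 307 rose (7.49%, against 3.99% of all tested genes) and 1 fell, with a family median of 0.22 against 0.01 over all tested genes, and 4 of the 38 genes that recovered carried this name. Among mitochondrial ribosomal proteins, 3 of 47 Mrpl genes (6.38%) and 2 of 29 Mrps genes (6.9%) rose, 0 fell, and their medians were 0.15 and 0.15. Both shares are near the background of 3.99%, and no difference from other genes was tested.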
